A study of Saccharomyces cerevisiae BY4741 with 16 samples.

Results

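The genes described here encode 10 of the most heavily used factors of cytosolic protein synthesis in budding yeast, *Saccharomyces cerevisiae*. They were picked by systematic name. The measured values are no part of that rule, although earlier results of these data were known when it was made, and all 10 were among the 5218 genes with values in the deposited table. Of them 8 encode factors that act during elongation: *TEF1* (YPR080W) and *TEF2* (YBR118W) for eEF1A, *EFB1* (YAL003W) and *TEF4* (YKL081W) for subunits of its exchange factor eEF1B, *EFT1* (YOR133W) and *EFT2* (YDR385W) for eEF2, *YEF3* (YLR249W) for eEF3 and *HYP2* (YEL034W) for eIF5A. The other 2, *TIF1* (YKR059W) and *TIF2* (YJL138C), encode the initiation helicase eIF4A.

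Chromatin immunoprecipitation followed by sequencing was used to follow 2 histone H3 marks, H3K4me3 and H3K36me3, after RNA polymerase II was removed from the nucleus by anchor-away, in which rapamycin links the target to a ribosomal protein on its way out of the nucleus. Log-phase cells grown in YPD received rapamycin (1 ug/mL) and were sampled after 0, 20, 40 and 60 min, with 1 immunoprecipitated and 1 input library per mark and time, 16 libraries in all. The cells of every library were of the BY4741 Anchor-Away strain, which per the labels is *MATa* with *his3D1*, *leu2D0*, *ura3D0*, *tor1D1*, *fpr1D* and *RPL13-2xFKBP12-NATMX6*; no polymerase subunit is named there as tagged, and that polymerase II was depleted is known only from the design text of the series. The anchor is a ribosomal protein and the mutations of *TOR1* and *FPR1* make growth insensitive to rapamycin, so every time point, 0 min included, shares them, and no culture without rapamycin stands beside the later times.

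During elongation eEF1A brings charged tRNA to the ribosome, eEF1B reloads eEF1A with GTP, and eEF2 moves the ribosome on by a codon. Fungi also need the ATPase eEF3, and eIF5A, which carries the modified amino acid hypusine, helps ribosomes past difficult peptide bonds. The genes are among the most strongly transcribed of growing yeast, and several exist as pairs of near-identical copies. H3K4me3 is placed by Set1 in the COMPASS complex near the start of transcribed genes, and H3K36me3 by Set2, which rides on elongating polymerase, along their bodies.

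The values are the authors' signal per gene, on a linear scale, with the depth behind them unknown. Each mark was read in a single library at each time. No p-value can be had from that, every number describes these libraries, and whether a difference exceeds the spread between cultures cannot be told. Changes at 20, 40 and 60 min share the 0 min library of their mark, so likeness between them is no separate evidence. Log2 changes were computed after adding a pseudocount of 0.0491 for H3K4me3 and 0.0108 for H3K36me3. All-gene values refer to the 4826 genes (H3K4me3) and 4861 genes (H3K36me3) with a mean of the 4 levels that was at least 25% of the median of such means, while every count of the 10 translation factor genes includes all of them. *TEF4* and *TIF1* were under that filter in H3K4me3 (8 of 10 passed), and all 10 passed it in H3K36me3.

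*TEF4* and *TIF1* lie on chromosome XI, and their values stand apart together with those of their chromosome. The median H3K4me3 level at 0 min was 3.37 over the 272 genes of chromosome XI and between 4.56 and 5.26 on each of the other 15 chromosomes; for H3K36me3 it was 0.877 against 0.969 to 1.35. The values depended on strand. Forward-strand genes of chromosome XI starting in the first 200 kb had a median H3K4me3 level of 5.46 (37 genes), and those starting beyond it one of 1.52 (92 genes), against 4.95 for forward-strand genes elsewhere. Their H3K36me3 medians were 1.62, 0.374 and 1.08 in the same order. Reverse-strand genes of chromosome XI beyond 200 kb had medians of 3.96 and 1.78 in the 2 marks, against 4.97 and 1.09 for reverse-strand genes elsewhere, so they were lower in H3K4me3 and higher in H3K36me3. The boundary of 200 kb was chosen after the values were seen. *TEF4* (XI, 282891 to 284455, sacCer3) and *TIF1* (XI, 554987 to 556174) are both forward-strand genes beyond it. What sets these genes apart was not tested. Whether the deposited values of *TEF4* and *TIF1* measure those genes is therefore uncertain, here and wherever their levels, changes or ratios are given. The main medians and counts at 60 min as deposited are given with and without both.

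**Figure D1:**
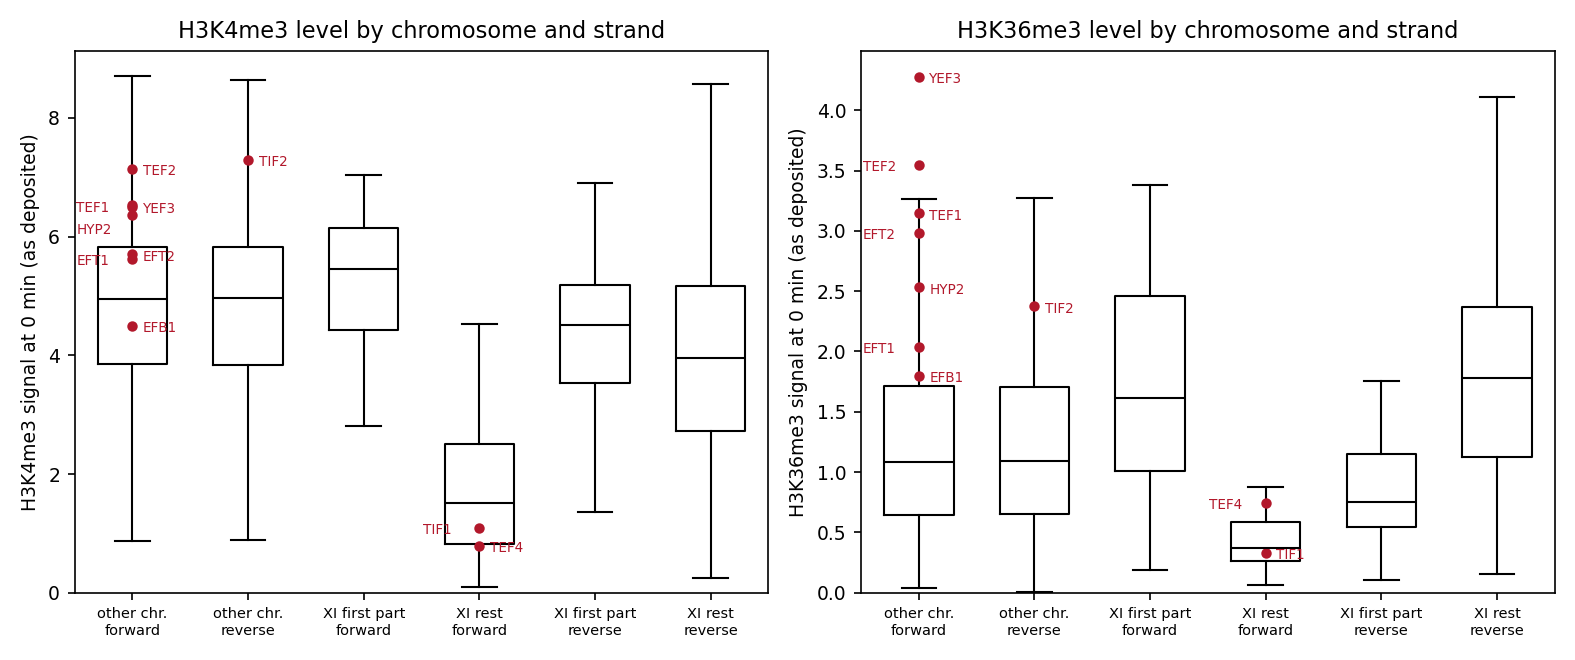
Signal per gene at 0 min (y axis, as deposited, linear) for H3K4me3 (left) and H3K36me3 (right), by chromosome and strand; boxes show the median and quartiles, whiskers reach the farthest gene within 1.5 times the box height, genes beyond are not drawn, and red points are the 10 translation factor genes. Forward-strand genes of chromosome XI beyond the first 200 kb, which include *TEF4* and *TIF1*, have a median H3K4me3 level of 1.52 against 4.95 for forward-strand genes elsewhere.

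Before rapamycin the other 8 genes were strongly marked. In H3K36me3 all 8 were above the median gene (level 1.08) at 0 min, from *EFB1* at 1.80 to *YEF3* at 4.28, and 5 of them (*TEF1*, *TEF2*, *EFT2*, *YEF3* and *HYP2*) were above the 90th percentile of all genes. In H3K4me3 7 of the 8 were above the median gene (level 4.91), with *TIF2* highest at 7.29, and *EFB1*, at 4.50, was below it. *TEF4* stood at 0.793 in H3K4me3 and 0.747 in H3K36me3, at percentiles 5.82 and 31.7 of all genes, and *TIF1* at 1.09 and 0.329, at percentiles 6.81 and 9.86. Among the 92 forward-strand genes of chromosome XI beyond 200 kb, *TEF4* was at percentile 22.3 in H3K4me3 and 89.7 in H3K36me3, and *TIF1* at 31.0 and 39.7. Whether the deposited signal is per length is not stated, so levels of different genes are compared as ranks in the same library, and as ratios only between copies of equal annotated length. Across 5115 genes with a known length, level at 0 min and gene length had a Spearman's rho of 0.23 for H3K4me3 and 0.22 for H3K36me3, and the translation factor genes span 474 bp (*HYP2*) to 3135 bp (*YEF3*).

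**Figure D2:**
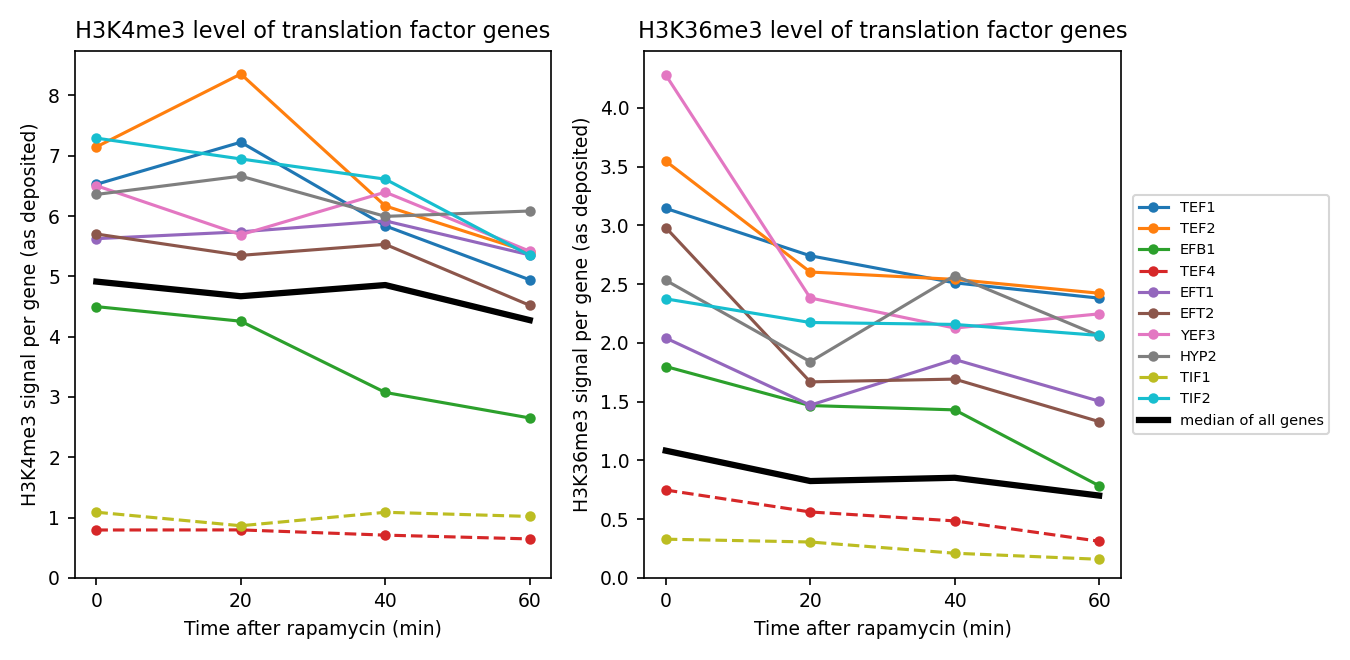
H3K4me3 (left) and H3K36me3 (right) signal per gene as deposited (y axis, linear) at 0, 20, 40 and 60 min after rapamycin (x axis), with 1 line per gene, dashed for the 2 genes on chromosome XI, and the median of all 5218 genes in black. *TEF2* H3K4me3 starts at 7.15, peaks at 8.36 at 20 min and ends at 5.40, and *YEF3* H3K36me3 starts at 4.28 and stands at 2.38 by 20 min.

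At 60 min all 10 genes were below their 0 min level in both marks, as were 88.7% of all genes in H3K4me3 and 95.2% in H3K36me3, so the shared direction does not set them apart. Their median log2 change was -0.74 in H3K36me3, from -0.20 for *TIF2* to -1.23 for *TEF4*, and -0.31 in H3K4me3, from -0.063 for *HYP2* to -0.75 for *EFB1*. At least 20% lower, that is at or below 80% of the 0 min level with the pseudocount added, were 8 of 10 in H3K36me3 (all but *HYP2* and *TIF2*), against 80.7% of all genes, and 5 of 10 in H3K4me3 (*TEF1*, *TEF2*, *EFB1*, *EFT2* and *TIF2*), against 18.4%. In H3K4me3 51 of 135 ribosomal protein genes past the filter were at least 20% lower too, and 6 of 28 other translation factor genes. Without *TEF4* and *TIF1* the median of the group was -0.49 in H3K36me3, with 6 of 8 at least 20% lower, and -0.36 in H3K4me3, with 5 of 8. With 20 min as the start, which leaves out the 0 min library, the H3K36me3 median was -0.15 and 4 genes were at least 20% lower (*EFB1*, *TEF4*, *EFT2* and *TIF1*), against 37.1% of all genes; over the 8 genes off chromosome XI the median was -0.094. With 40 min as the end the H3K36me3 median was -0.40 (-0.33 over those 8), and in H3K4me3 *EFB1* alone was at least 20% lower, against 0.932% of all genes. The direction as deposited rests on the scale of each library. Scaled to equal column totals, which moved the 60 min change of the median gene up by 0.17 in H3K4me3 and 0.67 in H3K36me3, 7 of the 10 were lower in H3K4me3 and 5 in H3K36me3, against 53.1% and 47.8% of all genes. With the 5% of genes lowest in mean level held at their 0 min median, which moved it up by 0.30 and 0.61, 5 were lower in each mark, against 22.8% and 54.7%. The H3K4me3 median of the 10 genes was -0.14 under the first scaling and -0.017 under the second. In H3K36me3 *TEF1*, *TEF2*, *EFT1*, *HYP2* and *TIF2* were above their 0 min level under both scalings. Changes are therefore also given against the mark's median gene, which stood at -0.18 in H3K4me3 and -0.65 in H3K36me3.

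Relative to the median gene, the 10 genes had a median of -0.12 in H3K4me3 at 60 min, with 7 of them below it. In H3K36me3 they had a median of -0.091, with 5 below and 5 above. Without the 2 genes and the background of chromosome XI the H3K4me3 median was -0.18 and the H3K36me3 median turned to 0.15. Against the unchanged median gene, 6 of the 8 genes off chromosome XI were below it in H3K4me3 and 3 of 8 in H3K36me3. The H3K36me3 value also turned to 0.15 without *EFB1* and *TEF4*, whose spans overlap other genes, and to 0.074 with 20 min as the start, so these libraries do not place the group on a settled side of the median gene. Within the group the spread was wide: *TIF2* was 0.44 above the median gene in H3K36me3, *HYP2* 0.35 and *TEF1* 0.25 above it, while *EFB1* was at -0.54, *EFT2* at -0.51 and *YEF3* at -0.28.

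The eEF1A genes *TEF1* (XVI, 700594 to 701970) and *TEF2* (II, 477671 to 479047) encode the same protein and followed nearly the same course in H3K4me3. In H3K4me3 *TEF1* had levels of 6.53, 7.22, 5.84 and 4.94 at 0, 20, 40 and 60 min, and *TEF2* had 7.15, 8.36, 6.17 and 5.40. Both were highest at 20 min, where *TEF2* was at percentile 99.5 of all genes and *TEF1* at 96.5, and lowest at 60 min, at percentiles 79.6 and 68.3. At 20 min 5 of the 10 genes were above their 0 min H3K4me3 level, as were 32.6% of all genes, and these 2 were the highest. The 20 min change was 0.15 for *TEF1* and 0.22 for *TEF2*, at percentiles 92.3 and 97.5 of all changes. From 20 to 40 min the change was -0.31 and -0.44, at percentiles 0.736 and 0.0932, while the median gene was 0.060 higher as deposited. At 60 min both stood at -0.40.

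In H3K36me3 the eEF1A pair kept a high rank throughout. *TEF1* had 3.14, 2.74, 2.51 and 2.38 and *TEF2* 3.55, 2.60, 2.54 and 2.42, so both were lower at each later time than at the one before. At 20 min the changes were 0.25 apart, with *TEF1* at -0.20 (percentile 74.0) and *TEF2* at -0.44 (percentile 45.8). The gap was 0.16 at 40 min and 0.15 at 60 min. The ratio of *TEF1* to *TEF2* was 0.887 at 0 min, 1.05 at 20 min and 0.983 at 60 min for this pair. Their 60 min changes of -0.40 and -0.55 were smaller losses than that of the median gene, at percentiles 74.3 and 60.6, and both genes were at percentile 98.8 of levels at 60 min. Scaled to column totals or to the lowest genes, these 2 changes turned positive. Reads of the near-identical copies *TEF1* and *TEF2* could be shared between them, and how the authors placed such reads is not stated, so the likeness of the pair is uncertain as a measurement of 2 loci.

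Of the eEF1B genes *EFB1* was the lowest of the 10 in H3K4me3 change at 60 min, and *TEF4* and *EFB1* were the lowest in H3K36me3. *EFB1* (I, 142174 to 143160), which encodes the subunit that exchanges the nucleotide on eEF1A, had H3K4me3 levels of 4.50, 4.26, 3.07 and 2.65. It went from percentile 39.4 of all genes at 0 min to 17.8 at 60 min, and its change of -0.75 was at percentile 0.363. The drop stood between 20 and 40 min, with a change of -0.46 at percentile 0.0518. Its H3K36me3 levels were 1.80, 1.47, 1.43 and 0.783, so that the difference there came later, with -0.86 between 40 and 60 min, at percentile 1.29. Relative to the median gene its H3K36me3 change was 0.031 at 40 min and -0.54 at 60 min, so the low value rests on the 60 min library. The small nucleolar RNA gene *SNR18* overlaps the annotated span of *EFB1*.

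The gamma subunit of eEF1B is encoded by *TEF4* and its paralog *CAM1*, which is not one of the 10 genes. *CAM1* (chromosome XVI) had H3K4me3 levels of 6.02, 5.35, 5.00 and 4.04, a 60 min change of -0.57 at percentile 1.36. Its H3K36me3 levels were 1.48, 0.806, 0.737 and 0.546, a change of -1.42 at percentile 3.18. *TEF4*, whose levels share the low values of its stretch of chromosome XI, had H3K4me3 levels of 0.793, 0.795, 0.708 and 0.645 (change -0.28, percentile 26.0) and H3K36me3 levels of 0.747, 0.561, 0.484 and 0.311 (change -1.23, percentile 7.38). Against the 92 forward-strand genes of that stretch, a reference chosen after the values were seen, *TEF4* was 0.025 above their median change in H3K4me3 and -0.37 relative to it in H3K36me3. *EFB1*, *TEF4* and *CAM1* were all below the median gene in both marks at 60 min, where 28.5% of genes past both filters were; these 3 were put side by side for their shared complex with their values known, and in H3K4me3 *TEF4* was below by only 0.096 on the log2 scale. The small nucleolar RNA gene *SNR38* overlaps the annotated span of *TEF4*.

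The eEF2 genes *EFT1* (XV, 575098 to 577626) and *EFT2* (IV, 1243230 to 1245758) also encode a single protein, but their H3K36me3 values parted. *EFT1* had 2.04, 1.47, 1.86 and 1.504, and *EFT2* 2.98, 1.67, 1.69 and 1.33. *EFT1* was thus the lower of the pair at 0 and 20 min and the higher at 40 and 60 min, and the ratio of *EFT1* to *EFT2* went from 0.685 to 1.13. The 60 min change was -0.44 for *EFT1* (percentile 71.5) and -1.16 for *EFT2* (percentile 9.62). The gap between the 2 changes was 0.36 at 20 min, 0.68 at 40 min and 0.72 at 60 min. In a comparison from 20 to 60 min, without the 0 min library, *EFT1* was at 0.033 and *EFT2* at -0.32 (percentile 36.6). Relative to the median gene *EFT2* was at -0.098 in that comparison and at -0.51 from 0 to 60 min, so its low standing depends on the 0 min library. The 60 min change of *EFT1* turned positive under both scalings, as those of the eEF1A genes did.

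In H3K4me3 the eEF2 pair differed less. *EFT1* had 5.62, 5.74, 5.92 and 5.36 and *EFT2* 5.70, 5.35, 5.53 and 4.52, with 60 min changes of -0.070 (percentile 77.8) and -0.33 (percentile 16.8). The levels at 0 min were close, at a ratio of 0.986, and at 60 min the ratio was 1.19. These copies too can share reads.

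*YEF3* (XII, 636780 to 639914), for the fungal elongation factor eEF3, had the highest H3K36me3 of the group at 0 min and a large part of its difference in the first interval. Its levels were 4.28, 2.38, 2.13 and 2.25. The change was -0.84 at 20 min (percentile 12.6), -1.01 at 40 min (percentile 4.84) and -0.93 at 60 min (percentile 22.2), and between 40 and 60 min it was 0.079 higher, where 89.1% of all genes were lower. Relative to the median gene *YEF3* was at -0.28 from 0 to 60 min and at 0.14 from 20 to 60 min, so its side rests on the 0 min library. Despite this it stayed at percentile 98.3 of levels at 60 min. Its H3K4me3 levels of 6.504, 5.69, 6.40 and 5.42 alternated between times, with a 60 min change of -0.26 at percentile 30.1. Its paralog *HEF3* is not analysed here.

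*HYP2* (V, 85676 to 86149), the eIF5A gene used in the presence of oxygen, was the gene closest to its starting level in H3K4me3 at 60 min. Its H3K4me3 levels were 6.36, 6.66, 5.99 and 6.08, and it was the 1 gene of the group that was not lower at 60 than at 40 min, where 96.4% of all genes were lower, with a difference of 0.021 at percentile 97.6. Its H3K36me3 levels were 2.53, 1.84, 2.57 and 2.06, and at 40 min it alone of the 10 was above its 0 min level, where 84.3% of all genes were lower. That return, 0.48 from 20 to 40 min, was at percentile 95.1. At 60 min the H3K36me3 change of *HYP2* was -0.30 as deposited, 0.37 scaled to column totals and 0.31 scaled to the lowest genes. The paralog *ANB1*, known to be used under hypoxia, was listed at 0.301 in H3K4me3 and 0.0994 in H3K36me3 at 0 min, at percentiles 2.04 and 1.18, and was under the filter in both marks, so the H3K4me3 level of *HYP2* was 21.1 times and its H3K36me3 level 25.5 times that of *ANB1*.

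The eIF4A genes *TIF2* (X, 153504 to 154691) and *TIF1* encode the same protein and had unlike values. *TIF2* had H3K4me3 levels of 7.29, 6.95, 6.61 and 5.35, lower at each time than at the one before, and a 60 min change of -0.44 at percentile 4.84. Its H3K36me3 levels of 2.37, 2.17, 2.16 and 2.06 differed least of the group, with a change of -0.20 at percentile 87.7, which turned to 0.47 and 0.41 under the 2 scalings. *TIF1* had H3K4me3 levels of 1.09, 0.864, 1.09 and 1.02 and H3K36me3 levels of 0.329, 0.305, 0.209 and 0.158. Its H3K36me3 change was -1.01 (percentile 16.8), and its H3K4me3 change was -0.092. The ratio of *TIF1* to *TIF2* was 0.149 in H3K4me3 and 0.139 in H3K36me3 at 0 min, and 0.190 and 0.0765 at 60 min. Reads could be shared between *TIF1* and *TIF2* as well, and how the authors placed such reads is not stated. The position of *TIF1* on chromosome XI and the difference between the copies cannot be told apart here; against the forward-strand genes of its stretch *TIF1* was at 0.21 in H3K4me3 and -0.15 in H3K36me3.

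**Figure D3:**
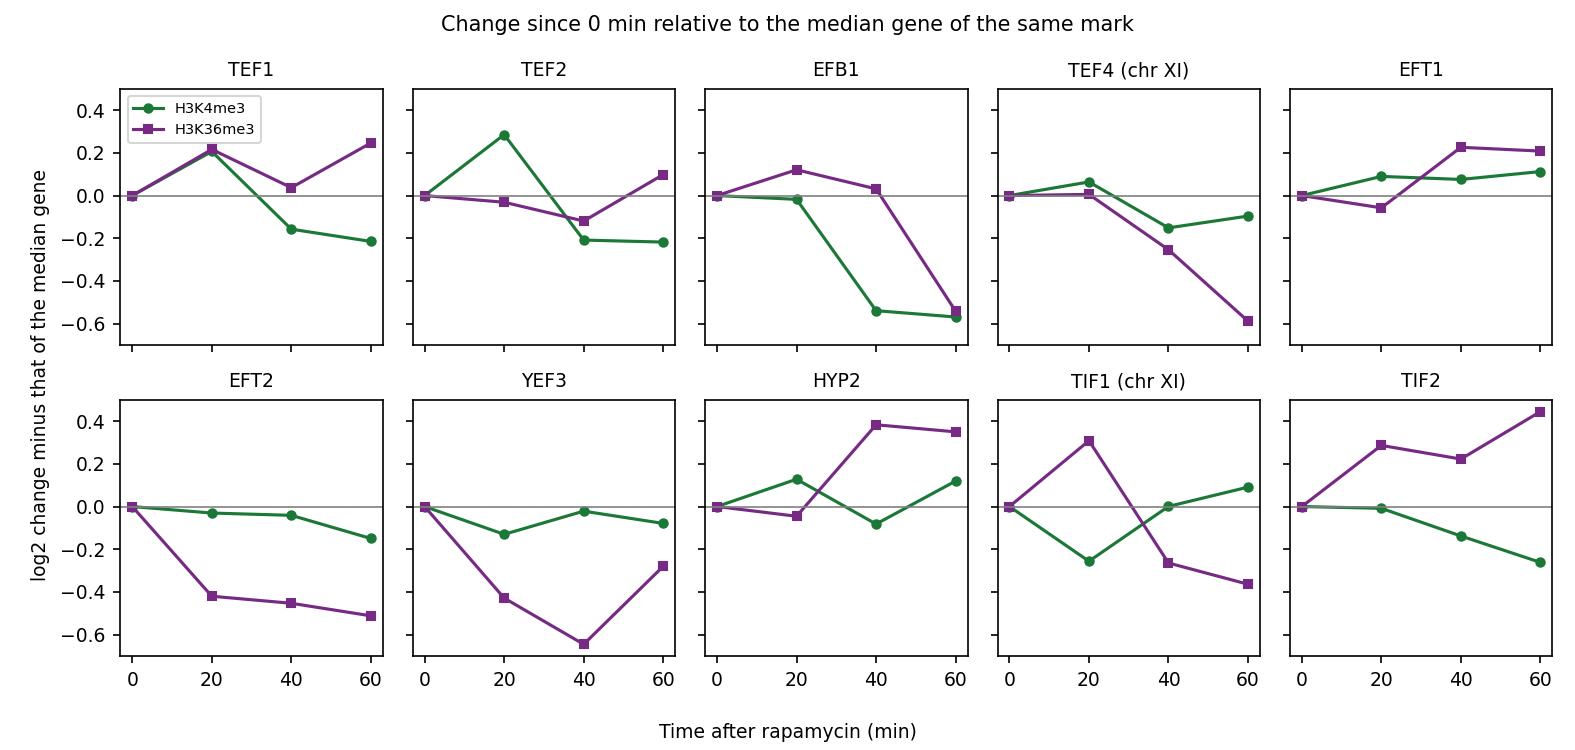
Log2 change since 0 min minus that of the mark's median gene (y axis) against time after rapamycin in min (x axis), with 1 panel per gene, H3K4me3 as green circles and H3K36me3 as purple squares, 1 library per point. *TEF1* and *TEF2* stand above the median gene in H3K4me3 at 20 min and below it at 40 and 60 min, *EFB1* reaches -0.57 and -0.54 in the 2 marks at 60 min, and *TIF2* ends at 0.44 in H3K36me3 and -0.26 in H3K4me3.

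The 2 marks placed the genes differently. Relative to the median gene at 60 min, 4 genes were below in both marks (*EFB1*, *TEF4*, *EFT2* and *YEF3*), 2 were above in both (*EFT1* and *HYP2*), 3 were below in H3K4me3 and above in H3K36me3 (*TEF1*, *TEF2* and *TIF2*), and *TIF1* was the other way round. Over the 8 genes off chromosome XI the counts were 3, 2, 3 and 0 in the same order. Among the 4657 genes past both filters the shares were 28.5%, 27.7%, 21.3% and 22.4%. The 3 genes *TEF1*, *TEF2* and *TIF2* were in the lowest 10% of H3K4me3 changes with H3K36me3 above the median gene, a position held by 3.20% of those genes; it was described after the values were seen, and *TEF1* and *TEF2* may share reads. Several sides are not stable. With 40 min as the end, *HYP2* H3K4me3 was at -0.082, *TEF2* H3K36me3 at -0.12 and *EFB1* H3K36me3 at 0.031 relative to the median gene. With 20 min as the start, *HYP2* H3K4me3 was at -0.010 and *YEF3* at 0.049 in H3K4me3 and 0.14 in H3K36me3.

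**Figure D4:**
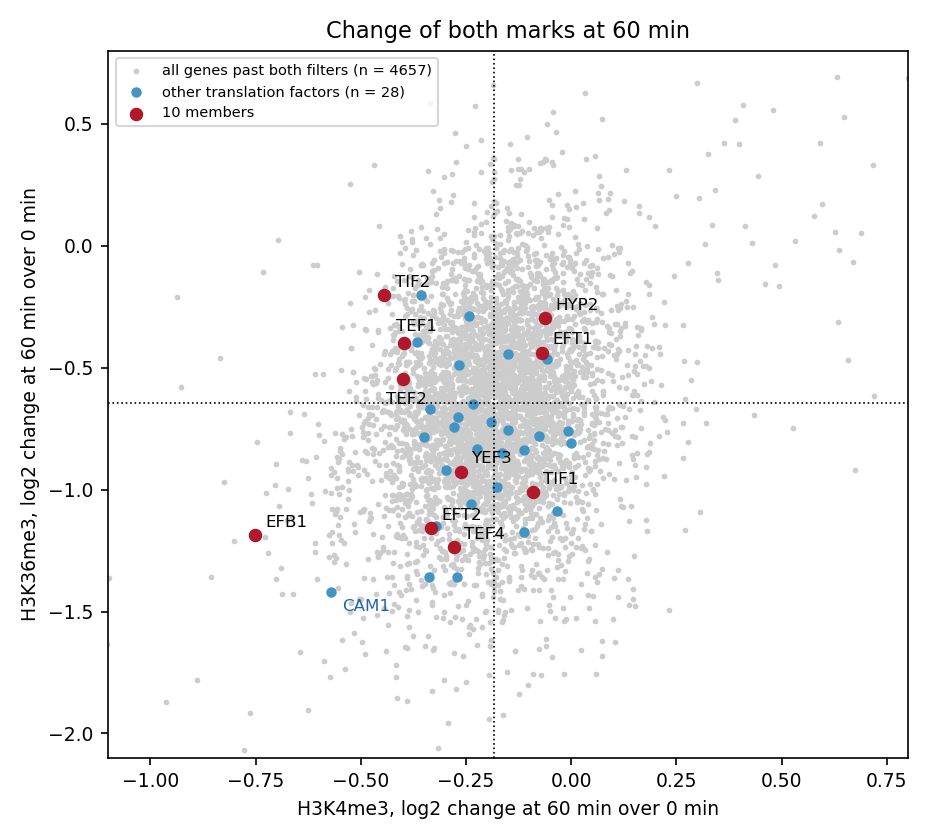
Log2 change at 60 min over 0 min in H3K4me3 (x axis) and H3K36me3 (y axis); grey points are the 4657 genes past both filters (22 lie outside the axes), blue points 28 other translation factor genes, red points the 10 genes described, and dotted lines the median gene of each mark. *EFB1* and *CAM1* lie toward the lower left, and *TIF2*, *TEF1* and *TEF2* left of the vertical line and above the horizontal one.

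As deposited, the step from 20 to 40 min in H3K4me3 ran against that of most genes. Of the 10 genes 6 were lower at 40 than at 20 min (*TEF1*, *TEF2*, *EFB1*, *TEF4*, *HYP2* and *TIF2*), against 33.1% of all genes, and 2 (*TEF2* and *EFB1*) were at least 20% lower, against 0.539%. Their median step was -0.11, which is -0.17 relative to the median gene, as it was over the 8 genes off chromosome XI, of which 5 were lower. The ribosomal protein genes had a median of -0.10 relative to the median gene in this step, with 81 of 135 lower, and the other translation factor genes one of -0.068, with 15 of 28 lower and none at least 20% lower. At 40 min against 0 min 9 of the 10 were lower in H3K4me3, against 50.7% of all genes, with *EFT1* the exception. When the columns were scaled to the lowest genes 5 were lower, against 17.6% of all genes. Scaled to column totals 9 were lower, against 52.2%. The rise of the median gene from 20 to 40 min, 0.060 as deposited, also rests on the scale. With equal column totals the median gene stood at -0.0086 at 20 min and -0.0068 at 40 min, each against 0 min. Shares of genes lower in this step were not worked out under either scaling.

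In H3K36me3 the first interval held most of the difference for some genes and the last for others. At 20 min all 10 were below 0 min, against 88.4% of all genes, with a median of -0.43 against -0.41 for the median gene. *EFT2* and *YEF3* were at least 1.5-fold lower by then, as were 31.5% of all genes. Between 40 and 60 min 9 of 10 were lower, against 89.1%, and *EFB1* and *TEF4* were at least 1.5-fold lower, against 10.1%. *TEF1*, *TEF2* and *TIF2* differed little between these times, by -0.077, -0.068 and -0.064, where the median gene was at -0.28.

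The other genes of the pathway were read from a list of 32 initiation, elongation, termination and recycling factors and paralogs, of which 30 are in the table and 28 passed the filter in each mark. All 28 were lower at 60 min in H3K4me3, from *CAM1* at -0.57 to *TIF11*, for the initiation factor eIF1A, at -0.0012. Of them 6 were at least 20% lower, near the share of all genes (88.7% lower, 18.4% at least 20% lower). In H3K36me3 all 28 were lower, from *CAM1* at -1.42 to *RLI1*, for a ribosome recycling factor, at -0.20, and 26 were at least 20% lower. Of all genes 95.2% were lower in that mark and 80.7% at least 20% lower. Relative to the median gene their medians were -0.053 in H3K4me3 and -0.14 in H3K36me3. The 135 ribosomal protein genes past the filter were at -0.090 and -0.16, with 51 and 119 of them at least 20% lower. The 10 genes stood at -0.12 and -0.091, or at -0.18 and 0.15 without chromosome XI. Over all 10 the range was from -0.57 to 0.12 in H3K4me3 and from -0.59 (*TEF4*, on chromosome XI) to 0.44 in H3K36me3.

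Protein-coding neighbours of the 10 genes ranked near some of them and far from others. Of the 20 neighbours 16 have values, with a median change at 60 min of -0.21 in H3K4me3 and -0.56 in H3K36me3. Neither neighbour of *HYP2* has values, *UTR5* across a gap of 130 bp and *MTC7* across one of 29 bp. At 0 min *ATO3*, next to *EFT2*, was at percentiles 89.2 and 94.7 of H3K4me3 and H3K36me3 levels, where *EFT2* was at 72.2 and 95.2, while *MUD1*, next to *TEF2*, was at 21.8 and 15.4, where *TEF2* was at 96.1 and 97.8. *MUS81*, next to *EFT2* across a gap of 325 bp, had an H3K36me3 change of -1.15, close to that of *EFT2*, and *VPS8*, next to *EFB1*, one of -1.40, while *SSA1* on the other side of *EFB1* was at -0.42 in H3K36me3 and 0.19 in H3K4me3. The right neighbour of *TEF4*, *VMA5*, a forward-strand gene like *TEF4*, was at percentile 8.25 of H3K4me3 levels at 0 min, and the left one, *RRP14*, on the reverse strand, at percentile 94.8. Both neighbours of *TIF1* ranked low in H3K4me3 too, *GLG1* at percentile 10.8 and *UTP30* at 7.69. A low rank was not particular to chromosome XI. Next to *TIF2* on chromosome X, *GLG2* was at percentile 11.2 and *YUR1* at 28.6.

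The median course of the 10 genes was also set beside that of other genes. Among 2041 other genes with mean levels at or above the median in both marks, the closest to it over 6 changes (2 marks, 3 later times, relative to the median gene) were *ECM14*, *NOP2* and *PRE7*, at Euclidean distances of 0.0830, 0.0991 and 0.105 log2 units. The median distance of those 2041 genes was 0.544. The 10 genes themselves were at 0.356 (*TEF2*) to 0.782 (*EFB1*) from their own median course, and 6 of them were farther from it than the median of the 2041 genes. That median course lay near the median gene, between -0.12 and 0.028 relative to it at all 6 changes, so the closest genes also do. It includes *TEF4* and *TIF1*, without which the H3K36me3 median at 60 min was 0.15. The distances were not worked out without these 2 genes.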

How the data were processed

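Values are the signal that the authors deposited per gene, in 8 linear columns. The submitters' processing notes name bedtools, SAMtools and Bowtie2 and the builds ASM294v2 and sacCer3. Versions and roles were not given in the sources used here, nor whether the signal was divided by input, gene length or the *Schizosaccharomyces pombe* spike-in (25% of cells, per the labels' protocols). No heading names a library type, and all were read as immunoprecipitated. Without counts, depth and counting error are unknown. Of 5222 lines, 3 were blank and 1 held no values. Gene names, spans and lengths came from the R64 table (the assembly of sacCer3), which matched 5115 of 5218 genes.

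Changes are log2 of level plus pseudocount, 1% of the mark's median at 0 min, over the same at 0 min. The filter was a mean level of 25% of the median of such means. Percentiles place a gene among all genes past the filter (changes) or with values (levels). A level at or below 80% of the earlier one served as the mark of size, in place of a test. The members and lists were chosen with earlier results of these data known. All 10 members are named, with *CAM1*, *ANB1*, *HEF3*, the lowest and highest of the other list, neighbours, and the 3 genes of nearest course. Neighbours given were picked after their values were seen. Alternatives covered pseudocount, filter, scaling, start and end time, reference genes, overlapping genes and merged paralogs; leaving out chromosome XI and a reference within it were added after seeing the data. The steps were tested on simulated data. Python 3.11.15 with pandas 2.3.3 and numpy 2.4.6 was used.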

Additional observations from a re-analysis of the deposited data

How the results depend on the processing

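Of 486 recomputed values over 52 results, 436 moved by less than 0.32 on the log2 scale with no called value changing sign (counts: by no more than 1.5 times), 42 moved further and 8 others, past 0.32 as reported, changed sign. Results smaller than 0.32, such as the H3K4me3 median of -0.31, could lose their whole change and still be among the 436. A single scale factor also leaves values relative to the median gene nearly as they were, and the filter does not enter a gene's own change. The 436 are therefore no measure of how stable the results are. Counting changes of sign of any size, there were 33, of which 18 were under the 2 scalings. Those without a pseudocount, with 10% of the median as pseudocount, with no filter, with reference genes of like level, without overlapping genes or without chromosome XI were all among the 436, although the median H3K36me3 change relative to the median gene went from -0.091 to 0.15 both without chromosome XI and without overlapping genes. With 20 min as the start it was 0.074. Scaled to column totals, the median H3K36me3 change of the 10 genes at 60 min was -0.066, 5 were lower and 4 at least 20% lower, and in H3K4me3 1 was at least 20% lower; *TEF1*, *TEF2* and *EFT1* turned to 0.27, 0.12 and 0.23 in H3K36me3, and *HYP2* and *TIF2* to 0.37 and 0.47. Scaled to the lowest 5% of genes these values were -0.13, 5, 4 and 1, with 5 lower in H3K4me3, and *TEF1*, *TEF2* and *EFT1* at 0.21, 0.062 and 0.17 and *HYP2* and *TIF2* at 0.31 and 0.41. The H3K4me3 median of the 10 genes, -0.31 as deposited, was -0.14 scaled to column totals and -0.017 scaled to the lowest 5% of genes. The scale factor itself, a single number per library, is what moves these values. The share of all genes at least 20% lower was not worked out under the 2 scalings, so the counts of 4 and 1 have no background beside them. From 20 to 60 min the H3K36me3 median was -0.15, 4 were at least 20% lower and *EFT1* was at 0.033. With 40 min as the end it was -0.40, *EFB1* relative to the median gene was at 0.031, and in H3K4me3 1 was at least 20% lower. With each pair of copies counted as 1, 3 of 7 genes were at least 20% lower in H3K4me3 and 5 of 7 in H3K36me3, where fewer genes are counted. The shares of all genes, with copies kept apart, were 18.4% and 80.7%. No paired analysis was possible because each group has 1 library. Depth is unknown, so the values of weakly marked genes such as *TEF4*, *TIF1* and *ANB1* carry an unknown counting error.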
